A study of Citrullus lanatus with 6 samples.

Results

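The genes described here are the 60 watermelon gene models that the study listed under amino acid transport, out of 23568 genes in the deposited expression table. They were found by the identifiers of that list, and every one of them was a row of the expression table. By their descriptions, 36 were ABC transporters, 18 were amino acid carriers, 3 were named only as a transporter or membrane transporter, and 3 had no description beside their identifier. The study drew up the list from the difference between salt and control in these same libraries. The differences and calls given below are therefore a description of the chosen genes, no p-value is given for any of them, and neither the calls nor their counts are independent evidence of a response to salt.

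The leaf libraries came from cv. Crimson Sweet, a watermelon cultivar, at 6 weeks of age. Seedlings lifted from their growth medium stood with their roots in 300 mM NaCl for 7 h, or in water for the same time as control, and 3 libraries from separate plants were made for each treatment. Some sample labels name the stress as drought while the protocol label names salt, and the treated libraries were taken as salt-treated. As a check of the tissue, 11 genes for chlorophyll a-b binding proteins, which hold the antenna pigments of green leaf cells, summed to 5355, 5213 and 7134 FPKM in the control libraries and to 2131, 184 and 884 FPKM in the salt libraries. These 11 genes came from the study's list of antenna genes changed by salt in the same libraries. Their lower sums in salt therefore follow from that choice, and the check rests on the control libraries.

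Amino acids do not cross membranes freely, and plants move them between cells, tissues and compartments through carrier proteins that use the proton gradient. Carriers of the lysine histidine type take up a broad range of amino acids in Arabidopsis, and cationic amino acid transporters prefer lysine, arginine and related molecules. ABC transporters are a separate superfamily that spends ATP to pump hormones, lipids, conjugates and defence compounds, and most of them are not known as amino acid transporters, so both classes are kept apart below.

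The libraries held 18838185 to 21258223 fragments, so a single fragment on 1 kb of gene gave 0.0470 to 0.0531 FPKM. FPKM, as deposited by the authors, counts the fragments of a gene relative to its length and to the size of the library, and levels can be set side by side between genes. Fold changes are salt minus control in log2(FPKM + 0.5), where the added 0.5 makes the change of weak genes look smaller than it is, and each is given with its standard error (SE) from limma, n = 3 libraries per treatment. The fit took in the 16638 genes that averaged 0.5 FPKM or more over the libraries, whose median log2 fold change was -0.57, and it was -0.05 after each library had been scaled by its median ratio to the average library. A gene was called higher or lower at an adjusted p below 0.05 over all of these genes. The samples are whole leaves, in which fewer cells of a type and less RNA per cell cannot be told apart.

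Of the 60 genes, 55 reached that average. Among these, 39 had a positive and 16 a negative log2 fold change, with a median of 0.98 against -0.57 over all genes. The call was higher for 28 and lower for 16 of the 55, where 13.6% of all genes were called higher and 34.2% lower, and since the list was drawn from this contrast nothing is read from these shares. Salt and control libraries did not overlap in 36 members with higher and 16 members with lower values in salt, against 17.7% and 43.4% of all genes. After median-ratio scaling 38 members were called higher and 15 lower, beside 22.4% and 20.9% of all genes, and the median of the members was 1.45. No member changed the sign of its fold change under any of the 17 other settings tried. Of the 55 genes, 4 passed the minimum only through their salt libraries: ClCG02G021970, ClCG09G011400, ClCG10G016920 and ClCG10G021830. Another 3, ClCG07G011080, ClCG08G008350 and ClCG10G012900, passed it only through their control libraries. All of these had to differ, so nothing is read from their calls.

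**Figure D1:**
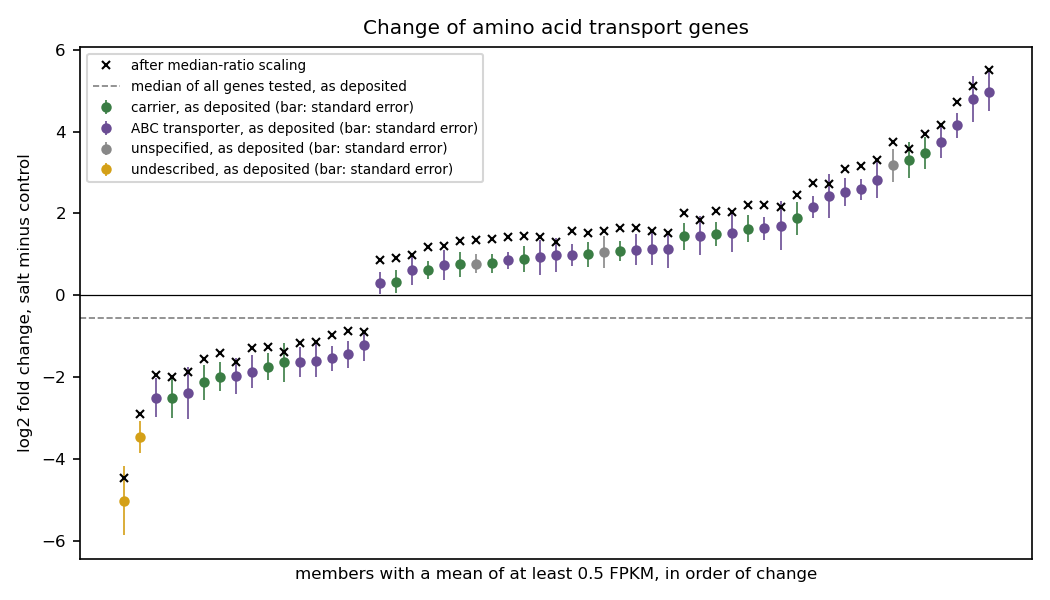
Log2 fold change of salt against control for the 55 members with a mean of at least 0.5 FPKM, in order of change and coloured by class, with the standard error as a bar; crosses give the same value after median-ratio scaling and the dashed line marks the median of all genes tested. The members run from -5.02 to 4.98, the smallest in size is 0.31, and every cross lies above its point.

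The 18 carriers were all above the minimum, with a median control level of 15.1 FPKM beside 13.3 FPKM over all genes tested. Together they summed to 619, 661 and 718 FPKM in control and to 1329, 980 and 1203 FPKM in salt, which is 666 ± 49.8 against 1170 ± 177 FPKM (SD, n = 3). The sum of these 18 described genes was thus higher in each salt library than in any control library. This holds for the genes picked by the study, and members without a description are left out. A cationic amino acid transporter stands in the list without an identifier. ClCG05G021550, a member without a description, had 432, 439 and 323 FPKM in control and 55.3, 18.6 and 41.7 FPKM in salt. If it were that carrier, the sum in salt replicate 2 would no longer lie above the controls. The share of the 18 carriers in all FPKM was 0.0874% ± 0.00784 in control and 0.164% ± 0.0300 in salt. Singly, 13 had a positive and 5 a negative log2 fold change, with a median of 0.84. Of the 18, 9 (50%) were called higher and 5 (27.8%) lower, beside 13.6% and 34.2% of all genes. After median-ratio scaling 13 carriers were called higher and 5 lower, beside 22.4% and 20.9% of all genes, at a median of 1.41. The sum was carried by a few genes, described first.

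Of the 18 described carriers, the one with the highest mean in either treatment was ClCG05G013250, a lysine histidine transporter. ClCG02G010510 was above it in control replicate 1 and ClCG03G004150 in control replicate 3. Its level was 113, 212 and 147 FPKM in the control libraries and 563, 341 and 547 FPKM in the salt libraries. All salt values lay above all control values, with control replicate 2 the highest of the controls and salt replicate 2 the lowest of the salt libraries. The mean moved from 157 ± 50.0 to 484 ± 124 FPKM, a log2 fold change of 1.63 (SE 0.33). This one gene made up 18.3%, 32.0% and 20.5% of the carriers' FPKM in control and 42.4%, 34.9% and 45.4% in salt. The other lysine histidine transporter, ClCG07G014920, was weak, with 2.99, 3.49 and 3.63 FPKM in control and 6.51, 8.35 and 6.99 FPKM in salt. It too was without overlap, at a log2 fold change of 1.00 (SE 0.31), but its call was lost when the replicate number was used as a block and in 5 of the 6 fits that left out one library (0.91 to 1.08), all but that without salt replicate 1.

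The 8 genes described only as amino acid transporters summed to 220 ± 27.0 FPKM in control and 484 ± 71.4 FPKM in salt. The call was higher for 5 of them and lower for 2, beside 13.6% and 34.2% of all genes. ClCG02G010510 was the most abundant of the family and the next carrier after the leading lysine histidine transporter, with 135, 110.2 and 145 FPKM in control and 238, 243 and 191 FPKM in salt. Its salt libraries were above its control libraries throughout, at a log2 fold change of 0.79 (SE 0.23), yet its share of the carriers' FPKM was 19.5% ± 2.60 in control and 19.5% ± 4.67 in salt. The call of this gene was lost without control replicate 1, control replicate 2 or salt replicate 1, with fold changes of 0.67 to 0.89 over all fits that left out a library. ClCG07G004790 had 39.5, 38.0 and 51.8 FPKM in control and 150.1, 80.8 and 145 FPKM in salt. The lowest of these salt values, in replicate 2, was still above the highest control value, and the log2 fold change was 1.49 (SE 0.30). ClCG10G015050 had 31.7, 13.2 and 20.2 FPKM in control and 121, 68.6 and 53.5 FPKM in salt, a log2 fold change of 1.88 (SE 0.40). Replicate 1 was its highest library in both treatments.

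ClCG10G016200 was another amino acid transporter with a wide gap. It stood at 1.54, 0.718 and 1.04 FPKM in control, below most genes tested, and at 25.0, 15.6 and 12.3 FPKM in salt. The groups lay far apart, the means differed 16.0-fold and the log2 fold change was 3.47 (SE 0.39). ClCG04G005170 was close between the plants of a treatment, with 8.33, 8.20 and 7.90 FPKM in control and 16.5, 17.1 and 20.1 FPKM in salt, a log2 fold change of 1.08 (SE 0.25). ClCG09G003120 had 7.46, 12.5 and 7.39 FPKM in control and 14.8, 14.3 and 22.4 FPKM in salt. Its libraries did not overlap, but control replicate 2 came near the salt values. At a log2 fold change of 0.89 (SE 0.32) the gene was not called, though it was without that library, at 1.13. It was called also after median-ratio scaling, at 1.45.

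Against these, 2 genes of the family were lower in salt. ClCG07G004780 had 6.18, 4.88 and 4.58 FPKM in control and 1.24, 1.27 and 1.07 FPKM in salt, with no overlap and a log2 fold change of -1.75 (SE 0.34). By its identifier it is the next gene to ClCG07G004790, which was higher in salt, so this pair of adjacent identifiers moved in opposite directions in every salt library. ClCG08G008350 was weak throughout, with 0.832, 1.52 and 2.55 FPKM in control and 0.312, 0 and 0.161 FPKM in salt. Its log2 fold change was -1.64 (SE 0.47), and it is among the 3 genes that passed the minimum only through the control libraries. Without control replicate 2, control replicate 3 or salt replicate 2 it was not called, and leaving out any one library gave values of -1.94 to -1.35.

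**Figure D2:**
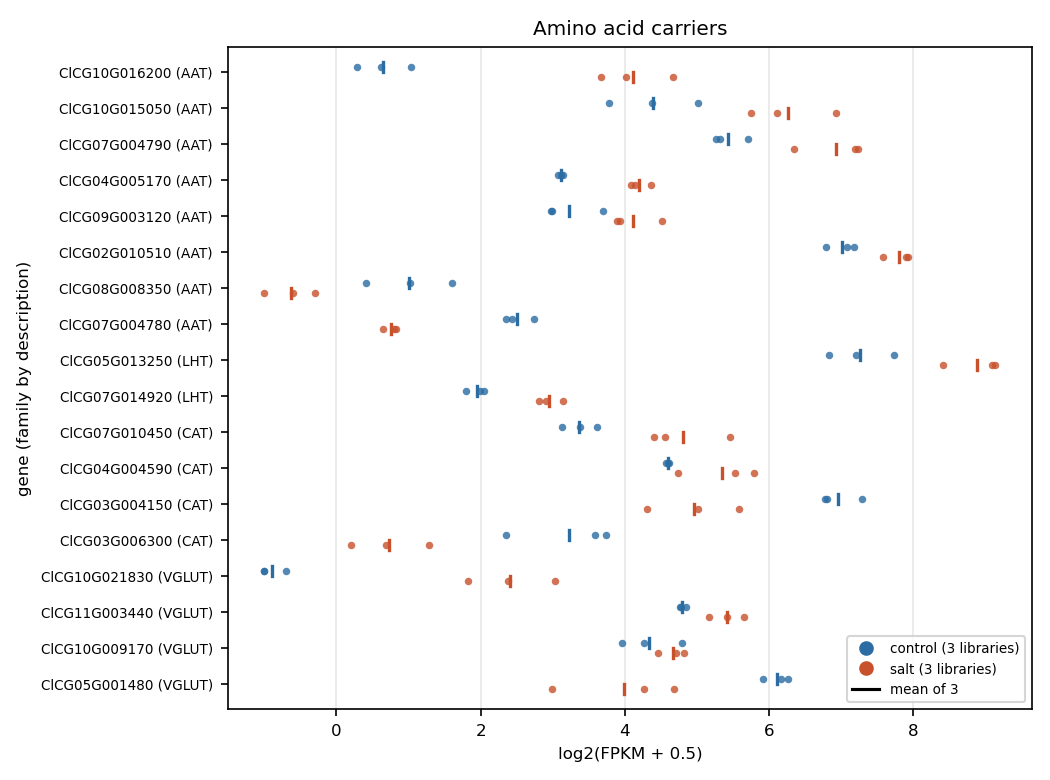
Level of the 18 amino acid carriers in each library as log2(FPKM + 0.5), ordered by family (AAT, amino acid transporter; LHT, lysine histidine transporter; CAT, cationic amino acid transporter; VGLUT, vesicular glutamate transporter); points are libraries, blue for control and red for salt, and ticks are means of 3. ClCG05G013250 has the highest mean in salt, 5 carriers lie lower in salt, and the libraries of ClCG10G009170 overlap.

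The 4 cationic amino acid transporters were divided. ClCG03G004150, described as of the CAT5 family, which in Arabidopsis carries basic amino acids across the plasma membrane, was the most abundant, with 109, 111 and 155 FPKM in control and 31.7, 19.2 and 47.5 FPKM in salt. Its salt libraries were all below its control libraries, replicate 2 the lowest, and the mean went from 125 ± 26.0 to 32.8 ± 14.2 FPKM, a log2 fold change of -1.99 (SE 0.35). It made up 18.7% of the carriers' FPKM in control and 2.77% in salt, and went from the third to the seventh place among them. ClCG03G006300 had 4.61, 11.6 and 12.8 FPKM in control and 1.12, 1.93 and 0.649 FPKM in salt. No salt library reached the control range, and its log2 fold change was -2.50 (SE 0.49).

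ClCG07G010450, a putative cationic transporter, went the other way, with 11.7, 8.25 and 9.88 FPKM in control and 20.8, 23.0 and 43.7 FPKM in salt. All salt libraries were higher, replicate 3 by most, and the log2 fold change was 1.44 (SE 0.34). ClCG04G004590, described as of the CAT3 family, was nearly the same in the control plants, at 23.3, 23.9 and 23.7 FPKM, and had 45.4, 54.7 and 26.0 FPKM in salt. Salt replicate 3 lay close to the controls, and with a log2 fold change of 0.75 (SE 0.30) the gene was not called, though it was without that library, at 1.06. The family as a whole summed to 168 ± 28.9 FPKM in control and 105 ± 10.96 FPKM in salt, lower in each salt library than in any control library, although only ClCG03G004150 and ClCG03G006300 were themselves lower. After median-ratio scaling the sums were 134 ± 19.0 and 127 ± 20.4, a difference smaller than the spread between libraries.

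Vesicular glutamate transporters are named after the carriers that load glutamate into synaptic vesicles of animal nerve cells, and plant relatives of that family include phosphate carriers of plastids, so the name does not give the substrate in a leaf. The 4 members so described were counted among the carriers by name only, in all sums, shares and counts of that class. Together they summed to 117 ± 13.1 FPKM in control and 89.8 ± 3.88 FPKM in salt, and after median-ratio scaling the direction turned, with 93.5 ± 10.9 against 108 ± 19.2. ClCG05G001480 was the most abundant in control, with 76.2, 59.97 and 71.4 FPKM, and had 25.1, 7.47 and 18.8 FPKM in salt. Its libraries did not overlap, salt replicate 2 was the lowest, and the log2 fold change was -2.13 (SE 0.42). ClCG10G021830 passed the minimum only through its salt libraries. It was almost silent in control, with 0.118, 0 and 0 FPKM, and had 4.71, 7.68 and 3.03 FPKM in salt. By the fragments recovered from these values it rested on 5, 0 and 0 fragments in control and on 183, 302 and 125 in salt, and its log2 fold change of 3.31 (SE 0.44) depends on the 0.5 FPKM added to each value, being 5.24 with 0.1 FPKM added.

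The remaining 2 of the family were closer between treatments. ClCG11G003440 had 28.2, 26.8 and 26.9 FPKM in control and 35.5, 49.5 and 42.2 FPKM in salt, without overlap. At a log2 fold change of 0.61 (SE 0.22) it was not called, though it was without salt replicate 1, at 0.73. It was called also after median-ratio scaling, at 1.19. ClCG10G009170 had 18.6, 15.0 and 27.2 FPKM in control and 27.9, 25.8 and 21.5 FPKM in salt. Control replicate 3 lay within the salt range, and this is the carrier with the smallest log2 fold change, 0.33 (SE 0.28).

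The 36 ABC transporters were longer and weaker genes than the carriers. Their median length was 3094 bp, beside 1737 bp for the carriers and 1453 bp for all genes tested. Of the 36, 32 passed the minimum, and the median control level of all 36, those below the minimum included, was 2.49 FPKM. The class summed to 855, 841 and 964 FPKM in control and to 1834, 1757 and 1828 FPKM in salt, or 887 ± 67.2 against 1806 ± 42.9 FPKM. Each salt library was far above each control library, and the class made up 0.116% ± 0.0112 of all FPKM in control and 0.252% ± 0.0141 in salt. Of the 32 genes, 23 had a positive and 9 a negative log2 fold change, with a median of 1.05. The call was higher for 17 (53.1%) and lower for 9 (28.1%), beside 13.6% and 34.2% of all genes. Without control replicate 2 the call was higher for 11. After median-ratio scaling it was higher for 22 and lower for 8, beside 22.4% and 20.9% of all genes, at a median of 1.54.

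Multidrug resistance proteins export drugs and toxins in animals, and C family ABC transporters move conjugates into the plant vacuole. The 7 members described by either name were grouped by these words. Their descriptions do not show that all belong to the C family or share a function. Their FPKM summed to 188 to 302 in control and to 942 to 989 in salt, a mean of 227 ± 65.1 against 971 ± 25.5 FPKM. Control replicate 3 was the highest of the controls, while the salt libraries were close together. ClCG10G010840 had 150.4, 147 and 246 FPKM in control and 514, 551 and 575 FPKM in salt. It was the most abundant ABC transporter in salt and the second in control, with a log2 fold change of 1.63 (SE 0.28) and no overlap.

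ClCG06G001370, also described as a multidrug resistance protein, had 9.96, 10.1 and 19.0 FPKM in control and 273, 193 and 226 FPKM in salt. Even the lowest salt value lay far above the highest control value, the log2 fold change was 4.15 (SE 0.30), and the gene went from the twelfth to the third place among the ABC transporters. ClCG09G021060 had 25.6, 26.8 and 31.5 FPKM in control and 130, 223 and 168 FPKM in salt, at a log2 fold change of 2.58 (SE 0.26). ClCG09G001180 was weak in control, with 0.629, 0.890 and 0.185 FPKM, and had 15.7, 15.1 and 9.84 FPKM in salt, a log2 fold change of 3.75 (SE 0.41). Neither of these showed any overlap. The single member of this group lower in salt was ClCG10G012900, a multidrug resistance-associated protein, with 1.40, 1.23 and 1.93 FPKM in control and 0.380, 0.236 and 0.461 FPKM in salt. At -1.23 (SE 0.39) it lost its call under the replicate block, under median-ratio scaling and whenever any one library was left out (-1.33 to -1.09). It had passed the minimum only through its control libraries. ClCG09G013220, a C family member, had 2.47, 2.22 and 3.56 FPKM in control and 8.51, 6.45 and 3.06 FPKM in salt, so that salt replicate 3 lay among the controls, and it was not called, though it was without that library, at 1.31. ClCG00G004020 did not reach the minimum, with at most 0.09997 FPKM in control and 0.913, 0.0393 and 0.487 FPKM in salt.

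**Figure D3:**
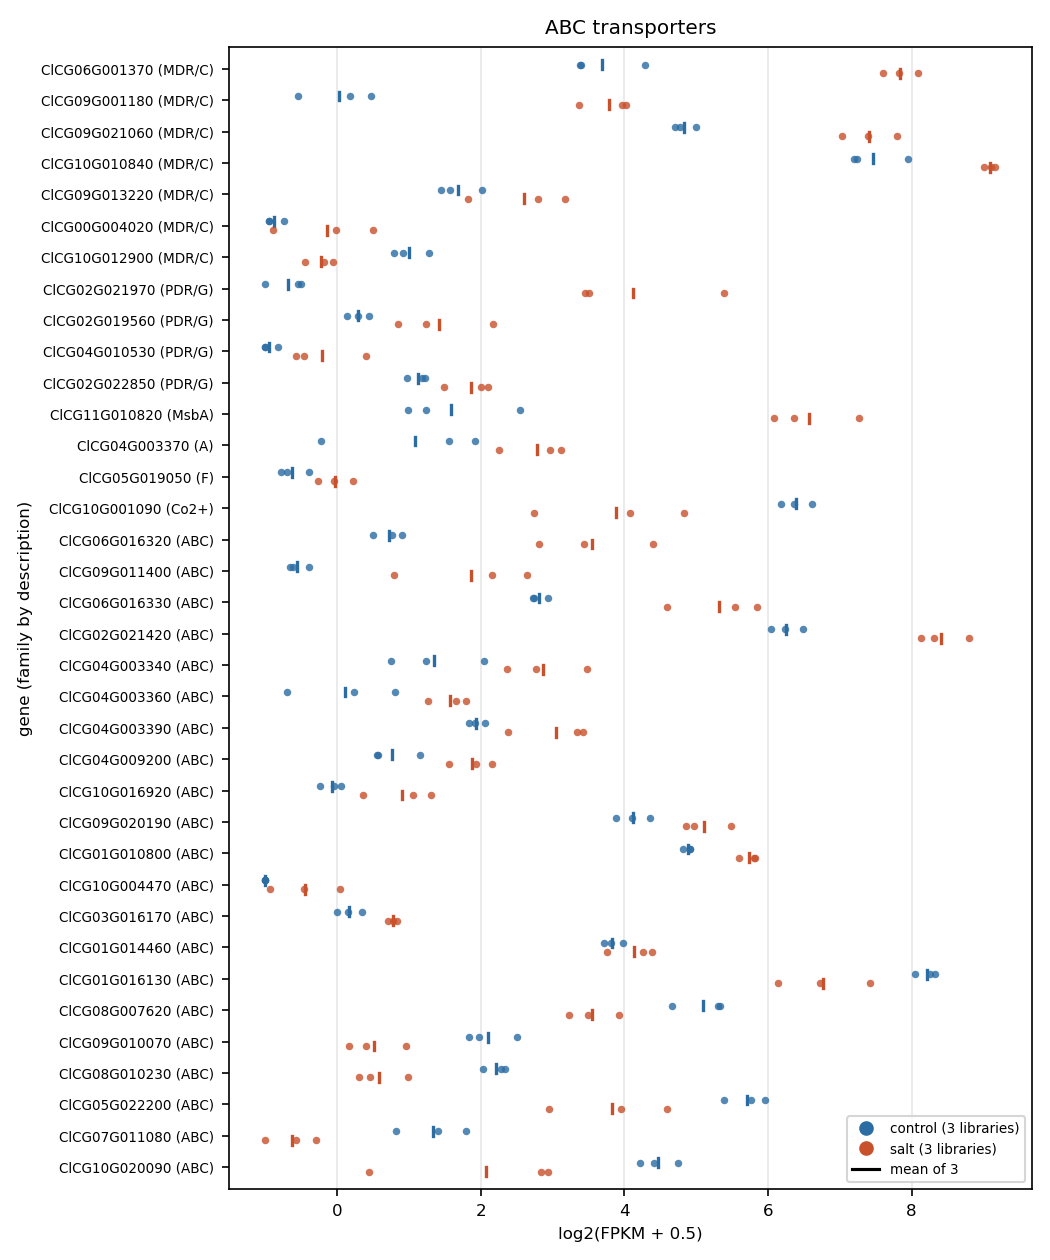
Level of the 36 ABC transporters in each library as log2(FPKM + 0.5), ordered by family as far as the description gives one (MDR/C, multidrug resistance or C family; PDR/G, pleiotropic drug resistance or G family; ABC, family not named); points are libraries, blue for control and red for salt, and ticks are means of 3. ClCG11G010820, ClCG06G001370 and ClCG02G021970 show the widest gaps, and ClCG01G016130 is the highest in control but not in salt.

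Pleiotropic drug resistance transporters form a branch of the G family found in plants and fungi, which exports secondary compounds and, for some plant members, carries abscisic acid. ClCG02G021970 was the member of this family with the widest gap. It had 0, 0.184 and 0.208 FPKM in control and 41.5, 10.4 and 10.9 FPKM in salt, a log2 fold change of 4.80 (SE 0.57) that was 6.36 with 0.1 FPKM added in place of 0.5. Salt replicate 1 stood well above the other salt libraries, and the gene passed the minimum only through its salt libraries. ClCG02G019560, with 0.723, 0.598 and 0.866 FPKM in control and 3.99, 1.87 and 1.30 FPKM in salt, was not called, though it was without salt replicate 3, at 1.41. Not called either was the G family gene ClCG02G022850, with a mean of 1.70 ± 0.201 FPKM in control and 3.20 ± 0.778 FPKM in salt. The G family gene ClCG04G010530 stayed below the minimum, with no value above 0.825 FPKM.

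ClCG11G010820 is described as MsbA, a name taken from the bacterial pump that flips lipid A across the inner membrane. Its level was 1.87, 1.48 and 5.37 FPKM in control and 81.9, 153 and 67.4 FPKM in salt. The lowest salt library was far above the highest control library, and the log2 fold change was 4.98 (SE 0.48). Among the ABC transporters whose description names no family, ClCG02G021420 was the most abundant in salt. Its level was 65.6, 74.9 and 89.0 FPKM in control and 316, 280.4 and 443 FPKM in salt, without overlap, with a log2 fold change of 2.16 (SE 0.26), and it made up 8.60% of the class in control and 19.1% in salt.

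Some ABC transporters lie in runs of neighbouring identifiers. On chromosome 6, ClCG06G016320 had 1.20, 1.37 and 0.915 FPKM in control and 10.4, 20.6 and 6.52 FPKM in salt, and the next gene ClCG06G016330 had 7.197, 6.22 and 6.11 FPKM in control and 45.9, 57.1 and 23.6 FPKM in salt. The pair had the same order of salt libraries, replicate 2 highest and replicate 3 lowest, at log2 fold changes of 2.83 (SE 0.46) and 2.52 (SE 0.35). On chromosome 4, ClCG04G003340, ClCG04G003360, ClCG04G003370 and ClCG04G003390 were higher in each salt library than in any control library, with log2 fold changes of 1.53, 1.45, 1.70 and 1.11. These 4 gene models, the third of them described as of the A family, which moves lipids in animals, measured 597, 1572, 1065 and 3871 bp, and reads that near-identical neighbours could share cannot be told apart in these values. Their levels were low, at most 3.66 FPKM in control and 10.7 FPKM in salt, and in salt all had replicate 2 as the highest and replicate 3 as the lowest library. Each lost its call in 4 or 5 of the 6 fits that left out one library, among them those without control replicate 2, salt replicate 1 and salt replicate 2, where values over all such fits ran from 0.93 to 2.12, and ClCG04G003360 and ClCG04G003390 lost it also with the replicate block.

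The 9 ABC transporters with lower values in salt included the most abundant of the 36 in the control leaves. ClCG01G016130 had 304, 322 and 265 FPKM in control and 172, 69.7 and 106 FPKM in salt. The libraries did not overlap, and the mean went from 297 ± 29.1 to 116 ± 51.7 FPKM, a log2 fold change of -1.45 (SE 0.34) that was -0.87 after median-ratio scaling. Its share of the class went from 35.5%, 38.2% and 27.5% to 9.36%, 3.97% and 5.77%, and its place from the first to the fifth. ClCG10G001090, described as the permease of a cobalt transport system of the bacterial type, had 81.8, 72.1 and 97.8 FPKM in control and 27.8, 6.20 and 16.4 FPKM in salt, at a log2 fold change of -2.51 (SE 0.48). ClCG05G022200 had 53.7, 41.4 and 61.6 FPKM in control and 23.6, 7.26 and 15.0 FPKM in salt, at -1.87 (SE 0.41). In both of these salt replicate 2 was the lowest library.

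ClCG10G020090 had 26.4, 18.2 and 20.9 FPKM in control and 7.17, 0.860 and 6.64 FPKM in salt. Replicate 2 was again far below the other salt libraries, and the log2 fold change of -2.39 had a wide error (SE 0.64) and was -1.58 without salt replicate 2. The weaker ClCG07G011080 had 1.27, 2.15 and 2.97 FPKM in control and 0.170, 0.313 and 0 FPKM in salt, and ClCG08G010230 had 4.35, 3.58 and 4.55 FPKM in control and 0.874, 0.737 and 1.49 FPKM in salt. Both were without overlap, at -1.97 (SE 0.44) and -1.63 (SE 0.37). ClCG07G011080 passed the minimum only through its control libraries. ClCG09G010070 had 5.17, 3.44 and 3.09 FPKM in control and 1.44, 0.827 and 0.621 FPKM in salt, a log2 fold change of -1.60 (SE 0.40). Without control replicate 1, ClCG10G020090 and ClCG09G010070 were not called. ClCG08G007620 had a mean of 34.4 ± 8.39 FPKM in control and 11.4 ± 2.96 FPKM in salt. Of the 16 members of any class with a negative fold change, 11 had salt replicate 2 as their lowest salt library. Among the 39 with a positive fold change it was the lowest for 11, and the share over all genes was not counted. This library also had the lowest sum of antenna genes in salt. Its median ratio to the average library was the lowest too, 0.693 beside 0.955 and 0.881 in salt replicates 1 and 3. Whether that library's low antenna level or its scale has a part in these values was not tested.

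**Figure D4:**
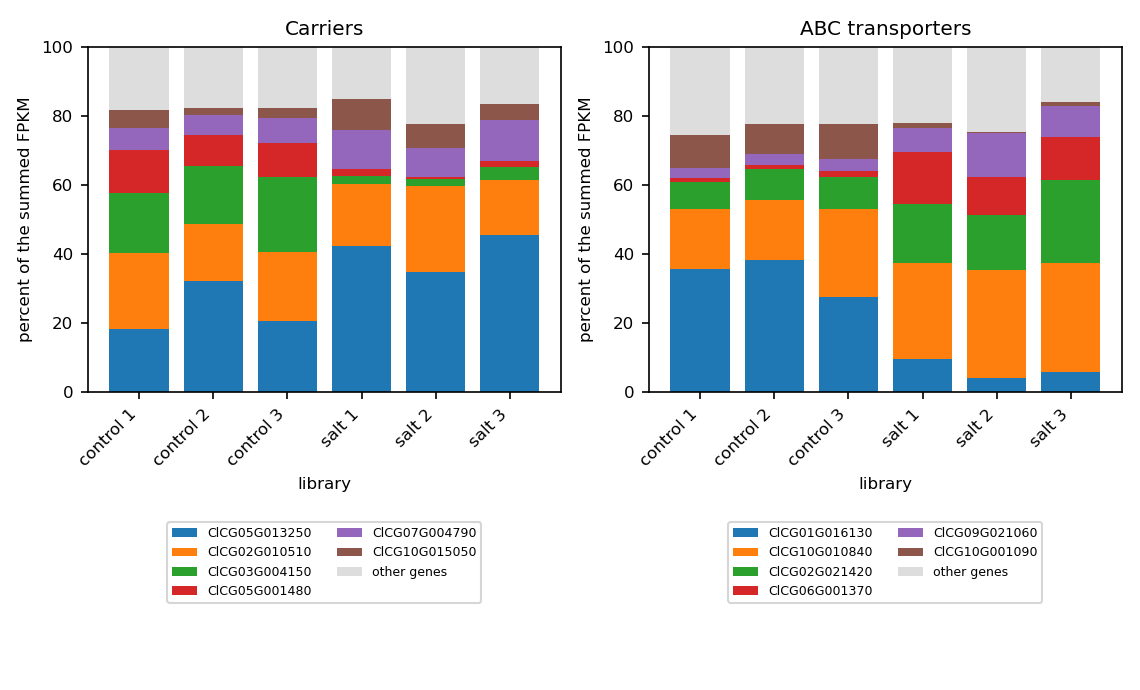
Share of the summed FPKM of the 18 carriers (left) and of the 36 ABC transporters (right) that the 6 genes with the largest share, and all others together, made up in each library, in percent. ClCG05G013250 widens from at most 32.0% to at least 34.9% of the carriers, and ClCG01G016130 narrows from at least 27.5% to at most 9.36% of the ABC transporters.

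The remaining ABC transporters were mostly weak genes or closer between the treatments. ClCG01G014460 was not called, at a log2 fold change of 0.31 (SE 0.27), with 12.7, 13.5 and 15.2 FPKM in control and 18.8, 20.5 and 13.1 FPKM in salt. Salt replicate 3 lay within the control range. ClCG01G010800 had a mean of 29.1 ± 1.16 FPKM in control and 53.1 ± 4.47 FPKM in salt, and ClCG09G020190 a mean of 17.02 ± 2.83 and 34.6 ± 8.41 FPKM. Both were called higher, at 0.85 (SE 0.20) and 0.99 (SE 0.26), the latter not without control replicate 1 or control replicate 2. ClCG10G004470 was listed at 0 in all control libraries and had 0.229, 0.0252 and 0.529 FPKM in salt, and the F family gene ClCG05G019050 had at most 0.264 FPKM in control and 0.667 FPKM in salt. Both were below the minimum. ClCG09G011400, ClCG04G009200, ClCG10G016920 and ClCG03G016170 had control means of 0.184, 1.23, 0.457 and 0.626 FPKM and salt means of 3.67, 3.25, 1.45 and 1.21 FPKM, and the first of these had the largest log2 fold change of the 4, 2.42 (SE 0.54). ClCG09G011400 and ClCG04G009200 were called higher and the others were not. ClCG09G011400 and ClCG10G016920 passed the minimum only through their salt libraries. The call of ClCG04G009200 was lost with the replicate block and without control replicate 1, control replicate 2, salt replicate 1 or salt replicate 2 (0.99 to 1.32 over all fits that left out a library). It was lost too with 0.1 FPKM added in place of 0.5, with no minimum and with a minimum of 2 FPKM.

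Outside both classes, 3 members were described only as transporters. ClCG03G015300, a membrane transporter, had 21.0, 31.8 and 58.8 FPKM in control and 247, 450.0 and 269 FPKM in salt. All salt libraries were several-fold above the controls, and the log2 fold change was 3.17 (SE 0.41). ClCG01G015900, with a mean of 21.2 ± 3.15 FPKM in control and 36.5 ± 4.75 FPKM in salt, was called higher except without control replicate 1, control replicate 3 or salt replicate 3 (0.67 to 0.88 over all fits that left out a library), and ClCG02G007810, with 3.07 ± 1.28 and 6.62 ± 0.881 FPKM, was not called, though its libraries did not overlap. The substrates of these are not given by their descriptions.

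The 3 members without a description were all lower in salt, and the lowest fold change of the list was among them. ClCG05G021550 had 432, 439 and 323 FPKM in control, the highest mean of all members, and 55.3, 18.6 and 41.7 FPKM in salt, at a log2 fold change of -3.47 (SE 0.39). The gap was wide, with no overlap. ClCG05G008430, a model of only 282 bp, had 225, 239 and 155 FPKM in control and 30.3, 2.03 and 2.64 FPKM in salt. Its log2 fold change was -5.02 with a wide error (SE 0.85), and salt replicate 1 stood apart from the other salt libraries. ClCG09G002490 had 0.166, 0.112 and 0.169 FPKM in control and was listed at 0 in all salt libraries. The list also held 3 descriptions without an identifier: a cationic amino acid transporter, an ABC transporter and a Co2+ transport permease. These were not paired with the 3 genes, so what each gene encodes is not settled. The 3 genes were kept out of the sums, shares and ranks of both classes, which may therefore lack members. By themselves they summed to 605 ± 110 FPKM in control and 50.2 ± 32.9 FPKM in salt. With them included, the 60 genes summed to 2219 ± 39.9 FPKM in control and 3392 ± 141 FPKM in salt.

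Other transporters that the study names outside this list gave a further comparison, although they too had been picked on these libraries. Of 12 such genes 11 were tested, and 5 were called higher and 4 lower, beside 13.6% and 34.2% of all genes. The 4 lower ones were nitrate transporters, of which ClCG03G003060, described as high-affinity, had 80.2, 83.5 and 74.0 FPKM in control and 4.49, 2.39 and 2.36 FPKM in salt, a log2 fold change of -4.53 (SE 0.29). ClCG02G009090, ClCG05G025540 and ClCG10G002910 had values of -3.52, -2.50 and -2.22. The groups of all 4 were without overlap. A further nitrate transporter, ClCG06G016390, was called higher, with 3.77, 3.96 and 7.99 FPKM in control and 12.9, 13.4 and 100.2 FPKM in salt, at 2.28 (SE 0.76), and ClCG11G002980, with at most 0.0589 FPKM in control and 0.463 FPKM in salt, was below the minimum. Of 3 ammonium transporters 2 were called higher, at 3.12 and 1.37. Novel00769, described as pleiotropic drug resistance, was called higher, with means of 0.212 FPKM in control and 3.30 FPKM in salt. It passed the minimum only through its salt libraries, so nothing is read from its call. Novel00145, described likewise, was not called, at 1.06 (SE 0.52). ClCG01G015710, of the nodulin MtN21/EamA family, some members of which export amino acids in Arabidopsis, had 1.15, 1.77 and 0.634 FPKM in control and 149.6, 80.7 and 116 FPKM in salt, with a log2 fold change of 6.12 (SE 0.36), above that of any carrier in the list.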

How the data were processed

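Leaf RNA of 3 control and 3 salt-treated watermelon plants was sequenced by the authors. The FPKM values were deposited by the authors in one table, each library on its own scale and with no normalization between libraries. Reads were aligned to the Charleston Gray genome. The paper names TopHat, Bowtie, HTSeq and DESeq, the submitters' processing notes name fastp, HISAT2 2.1.0, featureCounts and DESeq2, and which of them made the values is not settled. Fragments per gene and library were recovered by finding the totals and lengths at which FPKM values turn into whole fragments. On simulated data 6 of 6 totals and 97.4% of genes were recovered, and in the data the fragments summed to 99.58% to 99.67% of the totals. Recovery takes the shortest length that fits, so a gene whose counts share a factor may be undercounted.

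In R 4.3.3, log2(FPKM + 0.5) of genes averaging 0.5 FPKM or more was fitted by limma 3.58.1 with a variance trend and Benjamini-Hochberg adjustment over 16638 genes. In a simulation with 16351 genes tested, 67 of 100 genes changed by a log2 of 1.5 and 100 of 100 changed by 3 were called. Plots came from matplotlib 3.10.9 and tables from pandas 2.3.3 under Python 3.11.15.

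Members came from the study's amino acid transport list, of which only identifiers and descriptions were used. In that list 3 further descriptions stood without an identifier and were not paired with any. Classes were set by words in the descriptions. Named genes were all carriers, all members outside both classes, the 6 ABC transporters with the highest and the 6 with the lowest fold change, the 3 most abundant in each treatment and those in runs of identifiers. Further ABC transporters were named after their values were seen, to account for every member. Members, lists and rules were chosen with earlier results of these data known. Alternatives covered the pseudocount, the filter, scaling between libraries, the variance model, array weights, a replicate block, each library left out, and limma voom on the recovered fragments with TMM (trimmed mean of M values) factors.

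Control and salt libraries of the same replicate number deviated together from their group means, with correlations across genes of 0.175, 0.105 and 0.128, against -0.108 to -0.0391 for different numbers. Deviations from a group mean cancel out within a treatment, so the negative values follow in part from the positive ones and are no separate observation. The labels give no pairing, so the link by replicate number comes from the data, and the fit without a block is reported.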

Additional observations from a re-analysis of the deposited data

How the results depend on the processing

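The counts and medians rest mainly on the scaling between libraries. Of all genes, 3719 were called higher under median-ratio scaling, 3602 under quantile normalization and 3717 with voom on recovered fragments, instead of 2266, and 3472 and 3314 were called lower under median-ratio scaling and voom, instead of 5684. The median log2 fold change of the carriers was 1.41, 0.93, 1.28 and 1.43 under median-ratio scaling, a common sum, quantile normalization and voom, instead of 0.84, and that of the ABC transporters was 1.54, 1.58 and 1.88 under median-ratio scaling, quantile normalization and voom, instead of 1.05. With each library left out in turn, calls over all genes ranged from 1624 to 2113 higher and from 3705 to 5616 lower, calls of members from 20 to 27 higher and from 13 to 15 lower, and calls of ABC transporters from 11 to 17 higher and from 6 to 8 lower, with 11 without control replicate 2. The median of the carriers then ranged from 0.80 to 0.95 and that of the ABC transporters from 0.91 to 1.30. With the replicate number as a block, 24 members were called higher and 15 lower, and over all genes 2279 and 5737. The block removed the calls of ClCG04G003360, ClCG04G003390, ClCG04G009200, ClCG10G012900 and ClCG07G014920, added none and changed no other call of a member. With 0.1 FPKM added, ClCG04G003370, ClCG04G003360 and ClCG04G009200 lost their calls. With no minimum, ClCG04G003370, ClCG04G003390 and ClCG04G009200 lost theirs. Array weights removed the calls of ClCG04G003370 and ClCG04G003360, and quantile normalization those of ClCG09G010070 and ClCG10G012900. Under median-ratio scaling 10 members gained a call. They were ClCG01G014460, ClCG10G016920, ClCG09G013220, ClCG02G019560, ClCG02G022850, ClCG09G003120, ClCG04G004590, ClCG10G009170, ClCG11G003440 and ClCG02G007810. Over 43 named members and 17 alternatives, 655 values kept their direction and call, 45 lost the call and 28 gained one, and none changed direction. Weakly expressed members such as ClCG10G021830 rest on few fragments in control, which limits their fold changes.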

Other observations

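Genes whose identifiers stand beside members in the runs, and which the sources used here do not describe, were read as values only. ClCG04G003330, next to the chromosome 4 run, had 31.2, 30.4 and 35.9 FPKM in control and 136, 152 and 112 FPKM in salt, a log2 fold change of 2.01 (SE 0.22), and its salt libraries had the same order as those of the 4 members of the run. ClCG04G003350, ClCG04G003380 and ClCG04G003400, which lie between or beside those members, were at 0 in most libraries. Beside the adjacent carriers that moved in opposite directions, ClCG07G004770 had 15.1, 19.1 and 15.2 FPKM in control and 28.0, 26.5 and 26.5 FPKM in salt, and ClCG07G004800 had 22.7, 29.7 and 28.3 FPKM in control and 17.6, 6.16 and 9.49 FPKM in salt. Neither had overlapping libraries.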
